A study of Rattus norvegicus with 24 samples.

Results

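Glutathione S-transferases were followed in the frontal cortex of rats that had breathed tungsten particles. The family was represented by 10 genes chosen by name, namely Gstm1, Gstm2, Gstm5, Gstp1, Gsta4, Gstt1, Gstk1, Gsto1, Mgst1 and Mgst3, out of 32883 reference genes in each table. Of these, 9 were found by name in every table and all 9 were high enough to be tested, while Gstm2 was not found by name and is not analysed here.

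These enzymes join the tripeptide glutathione to reactive compounds, so that lipid peroxidation products, quinones and drugs can be cleared from the cell as conjugates. The soluble enzymes fall into classes named after Greek letters (mu for Gstm, pi for Gstp, alpha for Gsta, theta for Gstt, omega for Gsto), Gstk1 belongs to the kappa class, and the Mgst genes encode unrelated membrane proteins of the MAPEG family. In the brain, mu and pi class enzymes are known mainly from glial cells, and several family genes are classical targets of the antioxidant transcription factor Nrf2.

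RNA-Seq libraries were made from the polyadenylated RNA of 24 adult male Sprague-Dawley rats, in 3 groups of 8. The Control rats had a tungsten concentration of 0 mg/m3, the Low rats 5 mg/m3 and the High rats 80 mg/m3, all given by inhalation, and the cortex was taken 24 h after exposure. All 24 sample titles also hold the word Repeat, whose meaning was not settled here. No transgene or other allele was part of the design, and each rat is named by its library number, which was 49 to 56 for Control, 57 to 64 for Low and 65 to 72 for High. Levels are given as scaled coverage, which is the mean read depth over the exons of a gene after the depths of all reference genes of a library were brought to a sum of 1000000, and it is a measure per length, so that levels can be set side by side between genes.

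Before scaling, the depths of the reference genes summed to 1669000 to 2822000 in the Control rats, 1640000 to 3070000 in the Low rats and 1770000 to 2665000 in the High rats. Read counts are not given, so counting error is unknown and the p-values measure only the spread between these rats. All 9 markers of cortical neurons were detected, and their sum spanned 1604 to 2228 in the Control rats, 1524 to 2244 in the Low rats and 1197 to 2225 in the High rats. The 5 striatal markers were detected as well, reaching 1026 in a High rat against a group median of 309.8 in their sum. The Low tables held no assembled loci, whereas there were 46334 to 159573 per Control rat and 50235 to 64010 per High rat, so the kind of table and the low concentration cannot be told apart. Control 56 had the most assembled loci. Libraries 56 to 62 (1 Control and 6 Low) and the pair Control 49 and Low 57 stood apart from the rest by a pattern over many genes that was already known, and calls are given with and without them.

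The genes are spread over 6 chromosomes, with positions given as in the tables. These place Gstm1 (ENSRNOG00000029726) on the minus strand of chromosome 2 from 210803869 to 210809306 and Gstm5 (ENSRNOG00000049743) on the plus strand from 210685197 to 210688272, so that both mu genes lie in 1 cluster. They place Gstp1 (ENSRNOG00000018237) on the minus strand of chromosome 1 from 219291679 to 219294147, with Gsto1 (ENSRNOG00000028746) on the same chromosome. Chromosome 4 carries Gstk1 (ENSRNOG00000016484) on the plus strand from 71621729 to 71626107 and Mgst1 (ENSRNOG00000007743) on the plus strand from 172119331 to 172134607. The last 3 are Gsta4 (ENSRNOG00000030449) on the plus strand of chromosome 8 from 85497557 to 85518879, Mgst3 (ENSRNOG00000004245) on the minus strand of chromosome 13 from 85601499 to 85622314, and Gstt1 (ENSRNOG00000049771) on the plus strand of chromosome 20 from 13799102 to 13816526.

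Most of the summed level of the 9 genes was carried by 3 of them. Mean scaled coverage over the 24 rats was 179 for Gstp1, the pi class enzyme, 178 for Mgst3, a membrane glutathione transferase and peroxidase, and 177 for Gstm1, the leading mu class enzyme. These genes could not be ordered, since Gstp1 exceeded Mgst3 in 9 of 24 rats and Mgst3 exceeded Gstm1 in 11 of 24. Their shares of the summed level of the 9 genes were alike, with 24.2% for Gstp1, 24.1% for Mgst3 and 23.9% for Gstm1. Other family genes are outside this sum. The order below them was Gsto1 at 103, Gstm5 at 43.9, Gsta4 at 27.6, Gstk1 at 19.6, Mgst1 at 6.93 and Gstt1 at 4.78. Gsto1, Gstm5, Gsta4 and Mgst1 were below their upper neighbour in 24 of 24 rats, Gstk1 was below Gsta4 in 22 of 24, and Gstt1 was below Mgst1 in 21 of 24. The place of Gstm5 in this order is uncertain, because its reads may be split with a copy named Gstm3, as given below. In relation to the 15644 genes tested, the level of Gstp1 was above 95.5% of genes and that of Gstt1 above 23.6%.

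The summed level of the 9 genes did not separate the groups. It was 741 ± 78.1 (SD, n = 8) in Control, 753 ± 56.1 in Low and 726 ± 51.3 in High, and the ranges of 645 to 855, 691 to 853 and 638 to 795 overlapped.

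**Figure D1:**
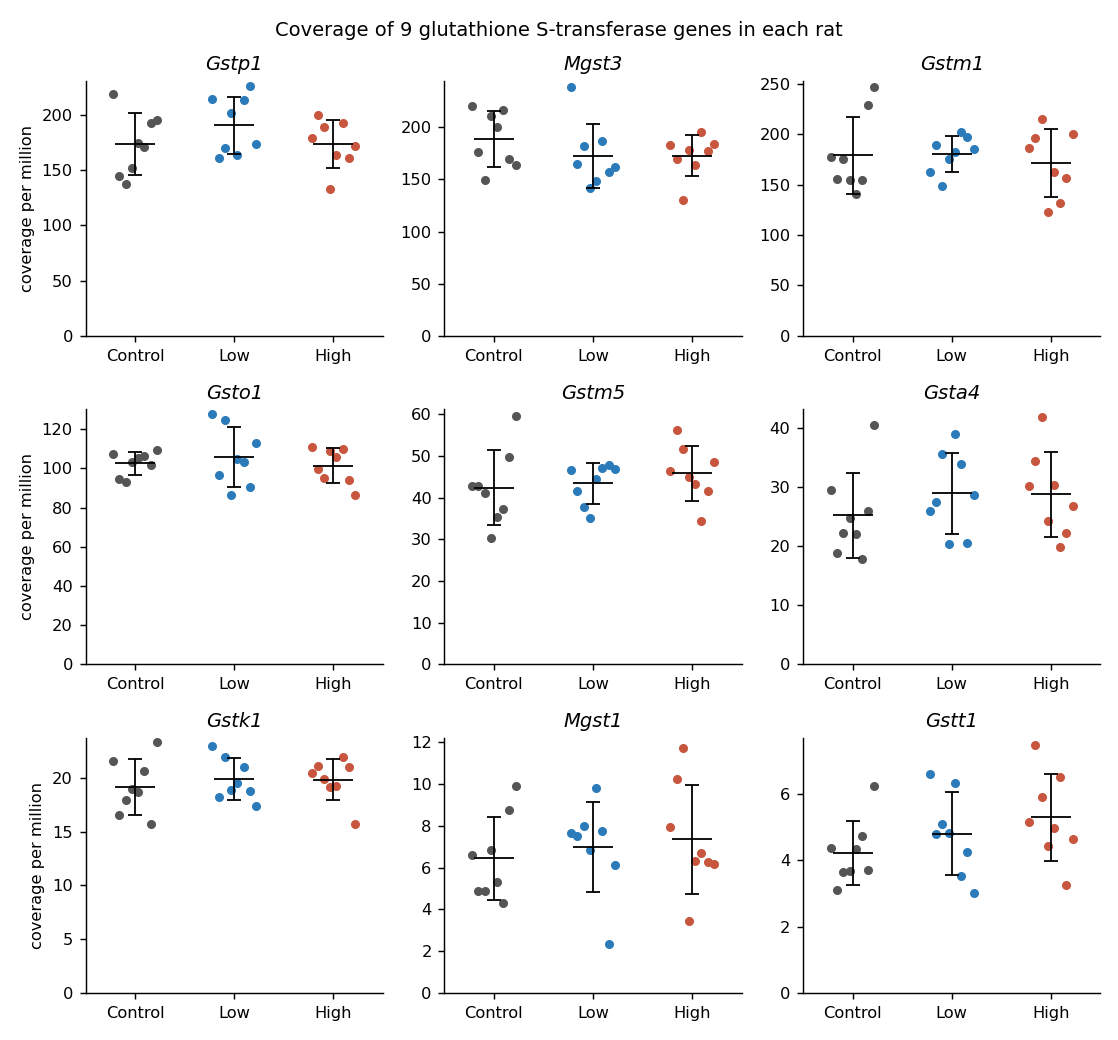
Scaled coverage (linear axis from 0) of each of the 9 genes in the 24 rats, in order of mean level. Points are rats, horizontal bars the group means and error bars 1 SD (n = 8). The 3 groups overlap in every panel, with Mgst1 ranging from 2.36 in a Low rat to 11.7 in a High rat. Of all genes tested, 1.53% lacked overlap in Low against Control and 2.26% in Low against High, in either direction.

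The first comparison asked whether the low concentration changed these genes. In Low against Control, 0 of the 9 genes passed the test in limma (adjusted p under 0.05), where 6.11% of all genes tested passed, and 0 of 9 had an unadjusted p under 0.05, where 18.4% of all genes did. Exact Wilcoxon rank-sum tests also gave 0 of 9 in each of the 3 comparisons, both adjusted and unadjusted. Of 15644 genes, those tests gave 249 adjusted and 2365 unadjusted in Low against Control, and 960 adjusted and 4760 unadjusted in Low against High. The log2 fold change was above 0 for 8 of the 9, beside 66.5% of all genes, and its median was 0.05 against 0.06 over all genes. In the FPKM column as deposited, all 9 passed with higher values in Low, as did 12393 of 13816 genes in either direction, and the median log2 fold change over all genes was 0.53. When that column was scaled to the same total in each library, 0 of 9 passed. The comparison of the high concentration with Control used the same Control rats. In High against Control, 0 of 9 passed, and the background was 0% with 0 of 15644 genes at this threshold, 330 genes (2.11%) and 0 of the 9 having an unadjusted p under 0.05 in limma, and with 0 genes passing the exact Wilcoxon tests as well, where 883 had an unadjusted p under 0.05. The median was 0.05 for the 9 genes and -0.03 for all genes, with 6 of 9 above 0 beside 36% of all genes. Low against High shared both exposed groups with those comparisons, and there 0 of 9 passed beside a background of 11.7%, with 0 of 9 at an unadjusted p under 0.05 beside 29.1%, 5 of 9 above 0 beside 69.9%, and a median of 0.00 against 0.09.

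In the mu class, Gstm1 spanned 141 to 246 around a median of 165 in the Control rats, 149 to 203 around 184 in the Low rats, and 123 to 215 around 174 in the High rats. The highest value of all was that of Control 56 and the lowest that of High 68, and the 3 groups overlapped. The log2 fold change was 0.03 (SE 0.12) in Low against Control, with limma adjusted p = 0.915, and -0.06 in High against Control, with adjusted p = 0.999. Gstm5, a mu class enzyme that in rodents is prominent in brain and testis, had a median of 42.0 in the Control rats (30.3 to 59.7), of 45.6 in the Low rats (35.0 to 47.9) and also of 45.6 in the High rats (34.5 to 56.2). Its highest and lowest values were both from Control rats (56 and 52), so the exposed groups lay within the Control range. The log2 fold changes of Gstm5 were 0.05 and 0.12 (SE 0.11) in Low and High against Control, with limma adjusted p = 0.838 and 0.999.

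The value of Gstm5 has a limit of its own. A gene named Gstm3 in the tables (ENSRNOG00000058357, on the unplaced sequence KL568438.1) had a coverage that was between 0.987 and 0.989 times that of Gstm5 in all 24 rats, and the within-group correlation of their log2 values was above 0.999. Values tied in this way are uncertain for both genes, since reads of near-identical copies can be split between them. Gstm1 was not tied in this manner, its closest genes being Neu4 (r = 0.82), which encodes a sialidase, the TGF-beta family ligand Lefty2 (r = 0.77) and the same Gstm3 (r = 0.77).

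Gstp1 had a median of 173 in the Control rats, which spanned 138 to 219, while the Low rats spanned 161 to 226 around 187 and the High rats 133 to 200 around 176. The Low rats reached the highest level and High 68 the lowest, but all groups overlapped. The log2 fold change of Gstp1 was 0.14 (SE 0.10) in Low against Control, a fold of 1.10 with a 95% interval of 0.954 to 1.27 (limma adjusted p = 0.48), and 0.01 in High against Control (adjusted p = 0.999). Gsta4, the alpha class enzyme that prefers the lipid peroxidation product 4-hydroxynonenal, had medians of 23.5, 28.1 and 28.5 in the Control, Low and High rats, which spanned 17.9 to 40.5, 20.4 to 39.0 and 19.9 to 41.9. The medians of both exposed groups were above that of Control, while Control 56 was second only to High 67. Its log2 fold changes of 0.20 and 0.19 (SE 0.16) had limma adjusted p = 0.544 and 0.999, and the interval of the fold in Low against Control, 0.908 to 1.45, takes in a fall as well as a rise.

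Gstt1, the theta class enzyme that acts on small halogenated compounds, spanned 3.12 to 6.26 around a median of 4.03 in the Control rats, 3.02 to 6.61 around 4.82 in the Low rats, and 3.27 to 7.48 around 5.07 in the High rats. The medians were in the order of the concentrations but the lowest values of the 3 groups were nearly alike. The log2 fold change of Gstt1 in High against Control, 0.26 (SE 0.14), was the largest of the 9 in that comparison, with an unadjusted p of 0.0822 in limma and an adjusted p of 0.999. Gstk1, the mitochondrial and peroxisomal kappa enzyme, stayed between 15.7 and 23.3 in the Control rats, between 17.4 and 23.0 in the Low rats and between 15.7 and 21.9 in the High rats, with medians of 18.8, 19.2 and 20.2. With this narrow spread the 95% intervals of its fold were 0.927 to 1.16 in Low and 0.925 to 1.16 in High against Control.

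Among the membrane enzymes, Mgst3 had a median of 188 in the Control rats (149 to 220), of 163 in the Low rats (142 to 239) and of 177 in the High rats (130 to 196). Low 57 was far above the other Low rats, which ended at 186, and the groups overlapped. Mgst3 had the only negative log2 fold change in Low against Control, -0.13 (SE 0.10), with limma adjusted p = 0.516, and -0.12 in High against Control, with adjusted p = 0.999. Mgst1, the microsomal enzyme of the outer mitochondrial and endoplasmic reticulum membranes, had medians of 5.95, 7.58 and 6.51 in the Control, Low and High rats, which spanned 4.33 to 9.92, 2.36 to 9.83 and 3.42 to 11.7. The lowest value was that of Low 63 and the highest that of High 67. Its log2 fold changes of 0.08 and 0.15 had the largest SE of the 9, 0.22, and the 95% interval of the fold was 0.779 to 1.44 in Low and 0.813 to 1.51 in High against Control. With libraries 56 to 62 as a covariate, the log2 fold change of Mgst1 became -0.41 in Low against Control (limma adjusted p = 0.611) and -0.66 in Low against High (adjusted p = 0.244).

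**Figure D2:**
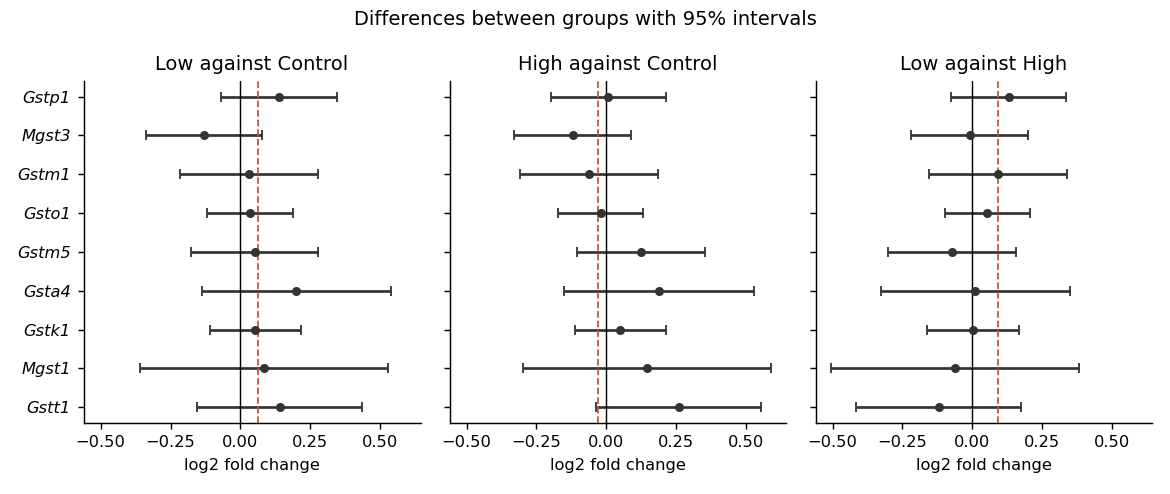
Log2 fold change of each gene (points) with its 95% interval (bars) from limma for the 3 comparisons, the dashed line marking the median of all 15644 genes tested. Each interval includes 0, and the widest are those of Mgst1, from -0.36 to 0.53 in Low against Control.

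The genes differed in how much they varied between rats of 1 group. The within-group SD of log2 values was 0.45 for Mgst1 and 0.35 for Gsta4, against a median of 0.22 over all genes tested, and at the other end 0.15 for both Gsto1 and Gstk1. Among genes whose mean level was within 0.5 on the log2 scale, the SD of Gsta4 was above that of 85.8% and that of Mgst1 above that of 84.1%, whereas that of Gstk1 was above only 26.1%. In Control, the highest rat was library 56 for Gstm1, Gstm5, Gsta4, Gstt1, Gstk1, Gsto1 and Mgst1, and library 49 for Gstp1 and Mgst3. Without Control 49 and Low 57, 0 of 9 genes passed in each comparison, where 678, 390 and 4514 of 15685 genes did in Low against Control, High against Control and Low against High. Without libraries 56 to 62, which leaves 2 Low rats, 0 of 9 passed as well, where 344, 0 and 354 of 15669 genes did.

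Gsto1, the omega class enzyme with thioltransferase and dehydroascorbate reductase activity, was steady between groups by coverage. The Control rats spanned 92.9 to 109.6 around a median of 104, the Low rats 86.2 to 128 around 104, and the High rats 86.5 to 111 around 103. The Low rats spread on both sides of the other groups. The log2 fold change of Gsto1 was 0.03 (SE 0.07) in Low against Control, with limma adjusted p = 0.84 and a 95% interval of the fold of 0.921 to 1.14. In the TPM column it was the 1 gene of the 9 that passed, higher in Low by 0.24 (limma adjusted p = 0.0284). In that column 3952 of 15587 genes passed, 3178 of them higher in Low, and the median of all genes was 0.17. The tables place it on the plus strand of chromosome 1 from 267607418 to 267617387, wholly inside the span of its paralog Gsto2 on the same strand, from 267607416 to 267640455.

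Gsto2 is not among the 10 genes and is given because its span holds Gsto1. Scaled coverage of Gsto2 spanned 3.23 to 5.18 in the Control rats, 3.94 to 5.76 in the High rats and 0.67 to 1.16 in the Low rats. All 8 Low rats were thus below all others, and groups without overlap were found for 1.53% of genes tested in Low against Control and for 2.26% in Low against High, in either direction. Its log2 fold change was -1.55 (SE 0.09) in Low against Control and -1.66 in Low against High, with limma adjusted p = 2.05e-12 and 4.4e-13. A pseudocount of 1 compresses the fold change at such low levels, and with 0.1 the values were -2.27 and -2.41. That call turned around with the column of the tables. In the FPKM column as deposited, Gsto2 was higher in Low than in Control by 0.80 on the log2 scale (adjusted p = 4.34e-06), and by 0.48 (adjusted p = 0.0632) once this column was scaled to the same total in each library. Gsto1 showed a smaller shift of the same kind, its FPKM relative to coverage, divided by the median ratio of its library, being 1.23 to 1.26 in Low but 1.12 to 1.21 in Control and 1.12 to 1.22 in High. The ratio of Gsta4 was 1.21 to 1.36 in Low and 1.18 to 1.25 in Control, and for the other 7 genes it was at the library median in each group. How the table kind bears on these 2 loci was not tested.

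**Figure D3:**
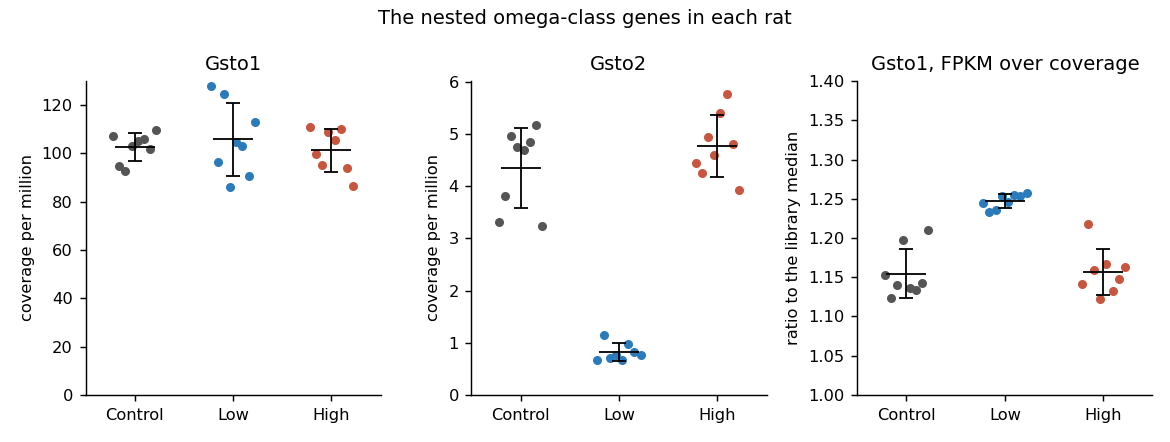
Scaled coverage of Gsto1 and of Gsto2, and the FPKM of Gsto1 over its coverage relative to the median ratio of its library (axis from 1), in the 24 rats, with group means and 1 SD (n = 8). Gsto1 overlapped between groups, whereas the Low rats were lowest in Gsto2 (at most 1.16) and highest in the ratio (at least 1.23).

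The genes moved together in part from rat to rat. Deviations from the group means were correlated over the 24 rats for all 36 pairs, with 100000 permutations within groups and Benjamini-Hochberg adjustment over the 36 pairs. The correlation was above 0 in 30 pairs with a median r of 0.28, and 7 pairs passed on r, all of them positive, 4 of which passed on Spearman's rho too. The closest pair was Gstm1 and Gstm5, with r = 0.77 (permutation p = 0.00014, adjusted p = 0.00252) and rho = 0.80 (permutation p = 5e-05, adjusted p = 0.0009). Leaving out the 2 rats farthest from the median of the first-named gene gave r = 0.78. In all pairs these rats were chosen by the first-named gene, so rats far out in the other gene stayed in. Gsta4 and Mgst1 had r = 0.75 (permutation p = 2e-05, adjusted p = 0.00072) and rho = 0.79 (permutation p = 1e-05, the smallest these permutations can give, adjusted p = 0.00036). Leaving out the 2 farthest gave r = 0.67. Both pairs also passed on r without libraries 56 to 62 (r = 0.75 and 0.76), and without Control 49 and Low 57 (r = 0.79 and 0.77).

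Weaker pairs passed on r and rho under median-of-ratios scaling but were lost without libraries 56 to 62 and without Control 49 and Low 57. Gstk1 and Gsto1 had r = 0.57 (permutation p = 0.00204, adjusted p = 0.0245), or 0.49 when the 2 farthest rats were left out, and rho = 0.58 (permutation p = 0.00289, adjusted p = 0.026). For Gstt1 and Gstk1, r was 0.55 (permutation p = 0.00633, adjusted p = 0.038) and rho 0.61 (permutation p = 0.00268, adjusted p = 0.026). Leaving out the 2 farthest gave r = 0.64. Without libraries 56 to 62 the r of these 2 pairs was 0.43 and 0.44, with permutation adjusted p = 0.247 and 0.272. Without Control 49 and Low 57 it was 0.49 and 0.51, with permutation adjusted p = 0.0623 and 0.0975. Under median-of-ratios scaling it was 0.69 and 0.59, with permutation adjusted p = 0.0012 and 0.0117. The other 3 of the 7 pairs, which passed on r alone, were Gstm1 with Gsta4 (0.57), Gstm5 with Gsta4 (0.56) and Gsto1 with Mgst3 (0.57). The pairs share the scaling of each library. The count of 7 pairs was 8 under median-of-ratios scaling, all of which passed on rho too. It was 3 without libraries 56 to 62, and 2 without Control 49 and Low 57. Not all of these were among the 7 pairs. Gstm1 with Gstp1 passed under median-of-ratios scaling (permutation adjusted p = 0.0267), and Gstm1 with Mgst1 without libraries 56 to 62 (permutation adjusted p = 0.0498).

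**Figure D4:**
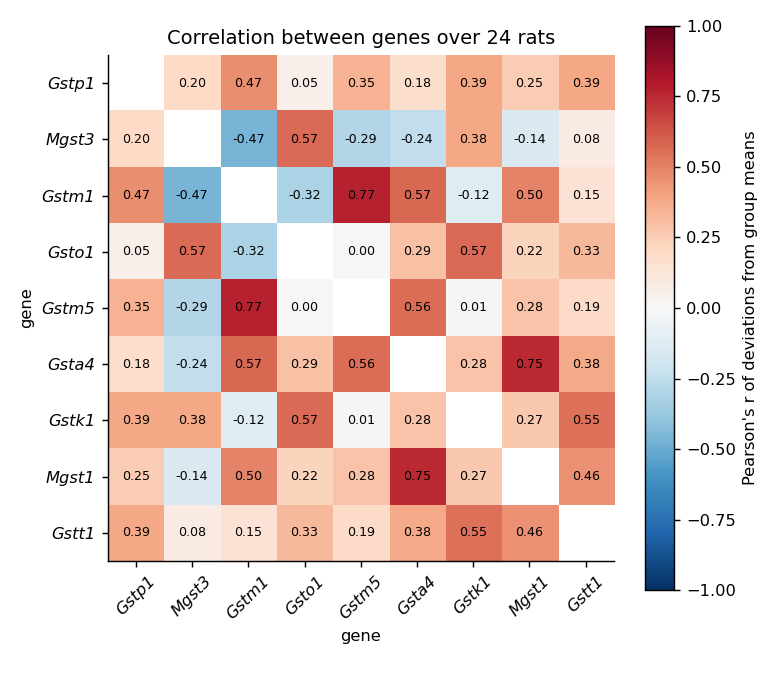
Pearson's r between the log2 values of the 9 genes after removing group means, over 24 rats, with red for positive and blue for negative values. The darkest cells are Gstm1 with Gstm5 (0.77) and Gsta4 with Mgst1 (0.75). Mgst3 with Gstm1 (-0.47) did not pass (permutation adjusted p = 0.0837), and its r was -0.18 under median-of-ratios scaling.

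The antioxidant response element core is the letters bound by Nrf2 with small Maf proteins. Promoter sequences were read for Gstm1, Gstm5 and Gstp1, because these show where the family differs in this core. They come from RefSeq (assembly GRCr8) and cover 250 bases before to 50 after the gene start, which was found for 9 of the 10 genes, Gstm2 included and Gstt1 not. The core was searched as TGACNNNGC on both strands, and capitals mark each match. It was present in 12.1% of 33469 promoters of this length and in 2 of the 9, Gstm5 and Gstp1. The Gstm1 promoter lies on the minus strand at chr2:198343334-198343633, that of Gstm5 on the plus strand at chr2:198219519-198219818, and that of Gstp1 on the minus strand at chr1:210769656-210769955.
Gstm1: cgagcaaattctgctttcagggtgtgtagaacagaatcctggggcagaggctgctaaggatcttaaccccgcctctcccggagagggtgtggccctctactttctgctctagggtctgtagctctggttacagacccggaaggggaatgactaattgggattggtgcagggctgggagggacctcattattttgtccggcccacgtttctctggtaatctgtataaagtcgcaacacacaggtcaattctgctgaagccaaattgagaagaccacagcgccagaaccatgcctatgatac
Gstm5: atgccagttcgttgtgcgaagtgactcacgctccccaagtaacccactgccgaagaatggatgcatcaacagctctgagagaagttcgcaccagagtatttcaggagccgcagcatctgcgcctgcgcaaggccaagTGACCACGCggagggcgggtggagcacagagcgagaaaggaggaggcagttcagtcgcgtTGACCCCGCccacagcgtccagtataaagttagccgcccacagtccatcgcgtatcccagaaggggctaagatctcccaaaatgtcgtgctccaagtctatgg
Gstp1: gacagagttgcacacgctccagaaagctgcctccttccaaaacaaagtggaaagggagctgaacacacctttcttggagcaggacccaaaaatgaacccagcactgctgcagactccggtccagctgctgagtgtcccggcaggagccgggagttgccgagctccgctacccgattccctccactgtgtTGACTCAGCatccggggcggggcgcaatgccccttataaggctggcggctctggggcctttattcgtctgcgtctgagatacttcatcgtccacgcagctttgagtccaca

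The matches begin 113 and 53 bases before the start of Gstm5 and 61 bases before that of Gstp1, all on the strand of the gene. The Gstm1 promoter did not hold this core within the window. Those of Gstm1 and Gstm5 held the TATA box letters TATAAA, present in 14.2% of promoters. The xenobiotic response element core GCGTG was in 29.7% of promoters and in those of Gsta4, Gstm5, Gstp1 and Mgst3. Such matches describe letters and say nothing of binding in these rats.

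The genes were then set beside the summed levels of 10 lists of cell type or tissue markers, 90 relations in all, on deviations from group means. With tissue samples, fewer cells of a type and less RNA per cell cannot be told apart. In all, 9 relations passed on r after adjustment and 5 of them on rho too, and the count on r was 14 under median-of-ratios scaling, 3 without libraries 56 to 62, and 13 without Control 49 and Low 57. Gstp1 moved with the oligodendrocyte sum (Mbp, Mog, Mag, Mobp, Cnp and Cldn11), with r = 0.72 (permutation p = 3e-05, adjusted p = 0.0027) and rho = 0.69 (permutation p = 0.00015, adjusted p = 0.00675). Without the 2 rats farthest from the median of the marker sum, High 68 and Low 59, r was 0.63, and without libraries 56 to 62 it was 0.73. In all these relations the farthest rats were chosen by the marker sum alone. That sum spanned 2670.3 to 3826 in the Control rats, 2844 to 5645 in the Low rats and 1712 to 4476 in the High rats.

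Mgst1 moved with the striatal sum (Drd1, Drd2, Adora2a, Ppp1r1b and Rgs9), with r = 0.67 (permutation p = 0.00023, adjusted p = 0.0103) and rho = 0.74 (permutation p = 0.00015, adjusted p = 0.00675). Leaving out the 2 farthest gave r = 0.66, and leaving out libraries 56 to 62 gave 0.73. This sum spanned 286 to 645 in the Control rats, 203 to 495 in the Low rats and 139.9 to 1026 in the High rats. Gsta4 ran against the cortical neuron sum, with r = -0.62 (permutation p = 0.00147, adjusted p = 0.0441) and rho = -0.55 (permutation p = 0.00811, adjusted p = 0.0562), which passes on r only. Leaving out the 2 farthest gave r = -0.46, and leaving out libraries 56 to 62 gave -0.78.

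The other 6 relations passed on r with an adjusted p of 0.0465 each (permutation test) and did not pass without libraries 56 to 62. Gsta4 and Mgst1 both rose and fell with the microglial sum, Gsta4 with r = 0.61 and rho = 0.59 and Mgst1 with r = 0.54 and rho = 0.62, and their permutation adjusted p for rho were 0.0442 and 0.0424. With the blood sum, Mgst1 had r = 0.58 and rho = 0.59 (permutation adjusted p = 0.0424 for rho) and Gsta4 had r = 0.59 and rho = 0.55 (0.0622). Gstm1 with the oligodendrocyte sum (r = 0.57, rho = 0.48) and Mgst3 with the endothelial sum (r = -0.54, rho = -0.52) did not pass on rho. Unadjusted permutation p for r lay between 0.00227 and 0.00465 in these 6. Without the 2 farthest rats r was 0.48 and 0.47 for the microglial sum with Gsta4 and Mgst1, 0.66 and 0.68 for the blood sum, 0.37 for Gstm1 and -0.48 for Mgst3. The part of tissue composition in the levels of these genes was not tested.

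**Figure D5:**
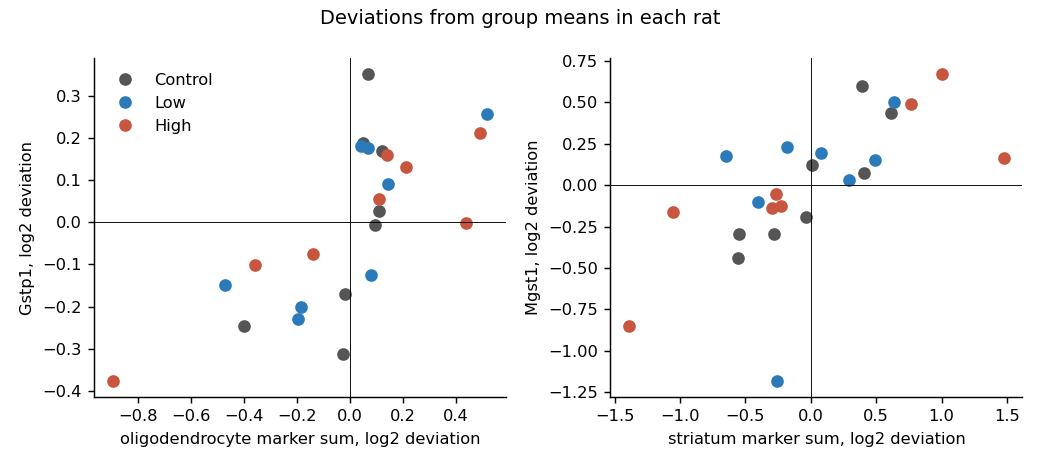
Deviation of log2 scaled coverage from the group mean for Gstp1 against the oligodendrocyte marker sum and for Mgst1 against the striatal marker sum, each point 1 of 24 rats coloured by group. Both panels rise from left to right (r = 0.72 and 0.67), and the rat farthest to the lower left in the first panel is High 68.

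Single genes whose deviations were most like those of each member were sought among 13103 other named genes over the 24 rats, by Pearson's r as a description. Mgst3 had the most company, with r over 0.8 to 89 genes, led by Atp6v0b (r = 0.92), a subunit of the vacuolar proton pump, Gabarapl1 (0.91), an autophagy gene, and the cyclophilin gene Ppia (0.91). Mgst1 had 32 such genes, led by Smarcd3 (0.90), a subunit of a chromatin remodelling complex, Dalrd3 (0.87) and the monoamine transporter gene Slc29a4 (0.85). Gstp1 had 9, led by Pigh, Mapk1ip1 and Aprt at 0.85, 0.84 and 0.84. For Gsta4 the 3 closest were RT1-DMb (0.83), of antigen presentation, Tst (0.80) and Alpl (0.78). Gsto1 was closest to Armc6, Rab1b and Uchl1 (0.81, 0.81 and 0.80), Gstk1 to Ptrhd1, Tor2a and Lgals1 (0.77, 0.75 and 0.72), and Gstt1 to Rsph1, Slc1a5 and Loxl1 (0.76, 0.71 and 0.69). For Gstm5, after Gstm3, these were Tjp3 (0.78) and St7l (0.70).

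Other genes of the glutathione pathway were counted by list. Of 23 other transferase and MAPEG genes, 22 were found and 14 tested. In Low against Control, 0 of the 14 were higher and 1, Gsto2, was lower, beside 6.11% of all genes in either direction. In Low against High 2 of the 14 passed, beside 11.7% of all genes. Gsto2 was lower, and Gdap1, an outer mitochondrial membrane protein of transferase fold, was higher by 0.28 on the log2 scale (limma adjusted p = 0.0474). The call of Gdap1 was lost under median-of-ratios scaling (0.19, limma adjusted p = 0.0859) and when any 1 of 18 of the 24 rats was left out, its log2 fold change then being 0.24 to 0.33 over the 24 fits. It was also lost in limma without the filter (adjusted p = 0.0607), at a minimum mean of 5 (0.0511), without trend and robust (0.0541), with the sum taken without overlapping genes (0.113), in FPKM scaled to the same total (0.0634), with libraries 56 to 62 as a covariate (0.281) and without them (0.476). Exact Wilcoxon tests gave it an adjusted p of 0.102, and without scaling its log2 fold change was 0.07 (limma adjusted p = 0.927). Of the 14, limma gave 5 an unadjusted p under 0.05 in Low against Control, beside 18.4% of all genes. In High against Control there were 0 beside 2.11%, and in Low against High 4 beside 29.1%. Exact Wilcoxon tests at that threshold gave 5, 0 and 3, beside 15.1%, 5.64% and 30.4%. The most abundant in this list were Gdap1 at 47.7, Gstm3 at 43.4 and Gstm7 at 39.0 in mean scaled coverage.

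Among genes for the processing and export of conjugates, the peptidase gene Lap3 (52.0) and the exporter gene Abcc5 (35.6) had log2 fold changes of 0.08 and 0.04 in Low against Control, with limma adjusted p = 0.612 and 0.867, and of -0.06 and 0.02 in High against Control, with adjusted p = 0.999. The list as a whole is not counted here.

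In the list for glutathione synthesis and recycling 0 of the 13 genes tested here passed in any of the 3 comparisons, the most abundant being Slc3a2 (108), Ggt7 (104) and the cysteine and glutamate transporter gene Slc1a1 (60.5). For Slc1a1 the log2 fold change was 0.21 in Low against Control and 0.20 in Low against High, with limma adjusted p = 0.0733 and 0.0524. Among 16 other genes that use glutathione or carry the transferase fold, such as Eef1g (325), Gpx4 (145) and Glo1 (131), 0 passed, and of 9 Nrf2 targets and regulators tested here, such as Keap1 (41.0) and Txnrd1 (39.3), 0 passed. Medians in Low against Control were 0.09 for synthesis, 0.08 for other users and 0.08 for Nrf2 targets, against 0.06 for all genes. Beside 18.4%, 2.11% and 29.1% of all genes, the counts at an unadjusted p under 0.05 in limma were 1, 1 and 5 for synthesis in Low against Control, High against Control and Low against High, 2, 0 and 4 for other users, and 1, 1 and 3 for Nrf2 targets. After adjustment, exact Wilcoxon tests gave 0 in these lists except Slc1a1 in Low against High, where 6.14% of all genes passed. Their counts at an unadjusted p under 0.05 were, in the same order, 2, 1 and 4 for synthesis. They were 3, 0 and 4 for other users and 2, 1 and 2 for Nrf2 targets, beside 15.1%, 5.64% and 30.4% of all genes. In High against Control, 0 genes of these lists passed in limma or in the exact Wilcoxon tests.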

How the data were processed

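RNA was taken from the frontal cortex of 24 rats, 8 per group, and sequenced as stranded polyadenylated libraries. The submitters' processing notes name FastQC, Trimmomatic, TopHat2, StringTie and the build mRatBN7.2, with no tool versions. The build of the positions in the tables was not settled here, so positions are given as the tables have them. The authors deposited 1 gene table per rat with coverage, FPKM and TPM. The deposited coverage signal is the mean read depth per base, and the deposited FPKM values are per kilobase of exon and per library total. The TPM column deposited by the authors sums to 1000000 in Low, but in Control and High reference genes come on top of assembled loci that also fill the column, so there it was treated as a score.

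Coverage was summed per reference gene and scaled to 1000000 per library. The 15644 genes whose mean over all rats reached 1 entered limma 3.58.1 (trend and robust, R 4.3.3) on log2(scaled coverage + 1), with all 3 groups in 1 fit, two-sided, and Benjamini-Hochberg adjusted p under 0.05. Fold changes are on that scale and understate those of low genes. Correlations used permutations within groups, two-sided. The fit and the correlations were tested on simulated data. The genes and lists were chosen with earlier results of these data known. All members are named, and of other lists the genes that passed plus the 3 highest in level, the 3 most similar genes per member, and genes overlapping a member. A few genes of the other lists are not reported here and were left out of their counts and sums. Alternatives covered pseudocount, filter, scaling, column, samples, covariate and test.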

Additional observations from a re-analysis of the deposited data

Results flagged for a closer look

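Of 30 sets of 8 rats examined (the 9 genes and their sum in the 3 groups), 2 held a rat whose gap to the others exceeded Dixon's 95% critical value for 8 values, where chance alone gives about 1.5. Gstk1 was 15.7 in High 72, against 19.2 to 21.9 in the other High rats. Mgst3 was 239 in Low 57, against 142 to 186 in the other Low rats, and Low 57 is among the libraries that stand apart over many genes.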

How the results depend on the processing

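No paired analysis was possible because every rat has its own library number and no number is shared between groups. No gene of the 9 passed in the planned or added alternatives except in the FPKM and TPM columns. In FPKM as deposited, 9 passed in Low against Control and 7 in Low against High, all higher in Low, where all genes had medians of 0.53 and 0.52. In TPM, 1 passed, Gsto1, in Low against Control (0.24, limma adjusted p = 0.0284), where the median of all genes was 0.17. With FPKM scaled to the same total, chosen after seeing the data as were the fits without libraries 56 to 62, 0 passed. Leaving out each rat in turn gave 0 passing in each comparison. Gstt1 could not be tested at a minimum mean of 5. All genes passing in Low against Control (956) ranged from 249 with exact Wilcoxon tests to 3952 in TPM and 12393 in FPKM, and in Low against High (1828) from 354 without libraries 56 to 62 to 12410 in FPKM. In High against Control, 390 genes and 0 of the 9 passed without Control 49 and Low 57. Pairs of members passing on r (7) were 8 under median-of-ratios scaling, 3 without libraries 56 to 62 and 2 without Control 49 and Low 57. The passing pairs were not all the same between settings.

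Signs changed with the setting, among called values that of Gsto2, and the cause was not tested. Without scaling the medians of all genes were 0.03, 0.14 and -0.12 in Low against Control, High against Control and Low against High, beside 0.06, -0.03 and 0.09 with scaling. Without scaling, log2 fold changes with the other sign were, in Low against Control Gstm1 -0.0042 and Gsto1 -0.00068, and in High against Control Gstm1 0.12, Gsto1 0.16 and Mgst3 0.062, and in Low against High Gstm1 -0.13, Gstp1 -0.087, Gsta4 -0.20, Gstk1 -0.21 and Gsto1 -0.16. Under median-of-ratios scaling, log2 fold changes with the other sign were, in Low against Control Gstm1 -0.028, Gstm5 -0.0063, Gstk1 -0.0033 and Gsto1 -0.024, and in High against Control Gsto1 0.017, and in Low against High Gstm1 -0.0035, Gsta4 -0.082, Gstk1 -0.088 and Gsto1 -0.041. With the sum taken without overlapping genes, log2 fold changes with the other sign were, in Low against Control Gstm1 -0.036, Gstm5 -0.014, Gstk1 -0.010 and Gsto1 -0.032, and in Low against High Gsta4 -0.059, Gstk1 -0.066 and Gsto1 -0.017. With the sum taken without mitochondrial genes, log2 fold changes with the other sign were, in High against Control Gsto1 0.0042. In FPKM as deposited, log2 fold changes with the other sign were, in Low against Control Mgst3 0.38 and Gsto2 0.80, and in High against Control Gsto1 0.031, and in Low against High Gstm5 0.37, Gstt1 0.22, Mgst1 0.29, Mgst3 0.45 and Gsto2 0.44. In TPM as deposited, log2 fold changes with the other sign were, in Low against Control Gsto2 0.58, and in High against Control Gsto1 0.031, and in Low against High Mgst3 0.039 and Gsto2 0.13. In FPKM scaled to the same total, log2 fold changes with the other sign were, in Low against Control Gsto2 0.48, and in Low against High Gstk1 -0.029 and Gsto2 0.061. With libraries 56 to 62 as a covariate, log2 fold changes with the other sign were, in Low against Control Gstm1 -0.050, Gstm5 -0.014, Gsta4 -0.10, Gstt1 -0.15, Gstk1 -0.087, Gsto1 -0.018 and Mgst1 -0.41, and in Low against High Gstm1 -0.0048, Gsta4 -0.35, Gstk1 -0.16 and Gsto1 -0.0086. Without libraries 56 to 62, log2 fold changes with the other sign were, in Low against Control Gstt1 -0.10, Gstk1 -0.032, Gsto1 -0.0028 and Mgst1 -0.47, and in High against Control Gstm1 0.0074, and in Low against High Gstm5 0.057, Gsta4 -0.20 and Gstk1 -0.12. Without Control 49 and Low 57, log2 fold changes with the other sign were, in Low against High Gstk1 -0.027. Leaving out 1 rat turned the sign in at least 1 fit for Gstm1 in Low against Control (range -0.015 to 0.10), Gstm5 in Low against Control (range -0.012 to 0.12), Gsto1 in Low against Control (range -0.0065 to 0.074), Gstm1 in High against Control (range -0.11 to 0.0074), Gstp1 in High against Control (range -0.037 to 0.062), Gsto1 in High against Control (range -0.040 to 0.012), Gsta4 in Low against High (range -0.057 to 0.092), Gstk1 in Low against High (range -0.041 to 0.029), Mgst1 in Low against High (range -0.18 to 0.11) and Mgst3 in Low against High (range -0.079 to 0.028).

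Read counts are unknown, so the limit set by depth cannot be given. The spread between 8 rats per group left 95% intervals of the fold from 0.779 to 1.44 for Mgst1 and from 0.921 to 1.14 for Gsto1 in Low against Control. Gstm5 is tied to Gstm3, and the Low tables differ in kind from the rest.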

Other observations

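Assembled loci on the strand of each of the 9 genes were present in all 16 Control and High tables and repeated the coverage of the reference gene in part. Their coverage equalled that of the reference gene within 0.1% in 16 of 16 tables for Gstm5 and Mgst1, in 15 for Gsta4 and Gstk1 and in 14 for Gstt1, but in 0 for Gsto1 and 4 for Gstm1, whose longest locus was 118592 bases. Coverage of assembled loci on the opposite strand was 48.5 at Gstm1, 31.8 at Gsto1 and 20.4 at Gstp1 in Control 56, whereas in the other 15 tables Gstm1 and Gstp1 had no such locus and Gsto1 reached 2.84 in 1 table, that of High 68. In Control 56 such coverage was also 19.4 at Gsta4, 12.3 at Gstk1 and 12.1 at Mgst3, while Gstm5, Gstt1 and Mgst1 had none. Other family genes were near the limit of the tables, with Gstt4 at 0 in 22 of 24 rats and Gsta2 in 18, while Hpgds, the prostaglandin D synthase of microglia and mast cells, was at a mean scaled coverage of 0.96 and Mgst2 at 0.79. Gstm7 in the tables spans 62153 bases of chromosome 2 and takes in Gstm6 and Gstm3l on the same strand, so its level of 39.0 is uncertain.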
